A study of Mus musculus with 6 samples.

Results

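Control mouse embryonic stem cells (mESCs) carried 702 clusters of close H3K27ac peaks on the 19 autosomes, each a stretch in which 4 or more listed peaks lay no more than 12.5 kb from the next. To find them, the autosomal peaks were sorted by position and neighbours were joined where the gap between them was at most 12.5 kb. The 22518 autosomal peaks, of 22973 listed in all, formed 15445 joined regions, of which 11316 held a single peak, 2561 held 2, 866 held 3, and 702 held 4 or more. The clusters were thus 4.55% of the joined regions, and they held 3482 peaks, or 15.5% of the autosomal peaks (95% Wilson interval 14.997 to 15.9%), and 21.7% of the autosomal peak length. The clusters were selected on peak positions alone, so their number, span and share of length inside peaks are descriptions without a test, and the intervals cover counting error only.

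The series measured H3K27ac by chromatin immunoprecipitation and sequencing (ChIP-seq) in mESCs of the E14Tg2A line carrying Rosa26-Cre and Oct4-IRES-Puro, grown in N2B27 medium with LIF, the MEK inhibitor PD0325901 and the GSK3 inhibitor CT-99021. Control cells received DMSO, and the other cells received for 120 min either 100 nM NVP-2, which inhibits the elongation kinase CDK9, or actinomycin D (ActD, 800 nM in the labels), which binds DNA and blocks RNA polymerases. Each of the 3 groups had 2 replicates, and chromatin of the human line HEK293T, written HEK293 in part of the labels, was added to every sample as a spike-in. The positions analysed here come from 1 list of control peaks pooled over both replicates, without heights or scores, so no value has a replicate error and the depth behind a peak cannot be read from the list. The treated samples were not analysed here. As a check of the cell type, promoters within 1 kb of the transcription start site (TSS) were overlapped by a peak for 18 of 23 pluripotency genes and 4 of 21 lineage regulators, against 43.4% of all autosomal promoters. Both lists were chosen with earlier results of these data known.

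H3K27ac is an acetylation of histone H3 found at active promoters and enhancers, and the acetyltransferases CBP and p300 deposit it. Close enhancers are often joined at this same distance to find super-enhancers, long domains that are then ranked by their ChIP signal and that in mESCs are known for genes of cell identity. The peak list has no signal to rank, so the stretches described here are clusters of peaks and were not called super-enhancers.

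The 4 clusters that hold a TSS of the pluripotency list are illustrated by 1 stretch of sequence each. They hold Nanog, which encodes a homeodomain factor of the naive state, Fgf4, which encodes a growth factor secreted by mESCs, and the transcription factor genes Klf2 and Mycn. The stretches are shown because each contains the letters of a motif known for OCT4 inside a cluster peak and outside any exon. For the Nanog and Fgf4 clusters, capitals mark the core of the joint OCT4-SOX2 motif, TTGTNATGC, and for the Klf2 and Mycn clusters, where no such stretch qualified, they mark the octamer ATGCAAAT. Both motifs were searched on both strands and share the letters ATGC. All 4 stretches are intergenic and are written 5′ to 3′ on the plus strand of the RefSeq GRCm38.p6 genome (mm10).
Nanog: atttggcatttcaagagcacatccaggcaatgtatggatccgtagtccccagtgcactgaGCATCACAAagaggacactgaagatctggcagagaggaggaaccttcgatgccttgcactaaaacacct
Fgf4: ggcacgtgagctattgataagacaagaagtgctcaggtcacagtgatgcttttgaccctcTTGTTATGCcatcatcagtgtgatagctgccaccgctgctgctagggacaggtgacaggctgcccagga
Klf2: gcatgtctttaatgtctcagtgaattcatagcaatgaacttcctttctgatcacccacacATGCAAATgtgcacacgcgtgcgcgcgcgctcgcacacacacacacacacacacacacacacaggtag
Mycn: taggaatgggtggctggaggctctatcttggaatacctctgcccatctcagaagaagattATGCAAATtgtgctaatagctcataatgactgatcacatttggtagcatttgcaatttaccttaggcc
The Nanog stretch lay at chr6:122686117-122686245, in the second of 9 peaks of its cluster and 21.3 kb from the Nanog TSS, with the motif on the minus strand. The Fgf4 stretch lay at chr7:144823314-144823442, in the first of 4 peaks and 24.0 kb from the Fgf4 TSS. The Klf2 stretch lay at chr8:72267244-72267371, in the first of 7 peaks and 51.7 kb from the Klf2 TSS, and the Mycn stretch at chr12:12925015-12925142, in the third of 4 peaks and 16.8 kb from the Mycn TSS. In the latter 3 the motif was on the plus strand. These letters are not particular to such loci: 1.04% of the 300-base windows at the middle of all autosomal peaks held the OCT4-SOX2 core and 1.75% held the octamer. A match is a run of letters and not a bound site.

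Most clusters were near the smallest size that the rule allowed. Exactly 4 peaks made up 374 clusters, 5 peaks 156, 6 peaks 84, 7 peaks 42 and 8 peaks 28, while 18 clusters held 9 or more. The median cluster spanned 43.1 kb (95% interval of the median 41.7 to 44.8 kb; quartiles 32.6 and 61.6 kb), and the range was 13.7 to 192.7 kb. Regions of 3 peaks, just below the limit, spanned a median of 24.0 kb and clusters of 4 peaks, just above it, 34.9 kb. On the side of the joining distance, the longest gap that was joined measured 12488 bp and the shortest that was not 12502 bp. There was no break in the list at this distance, since 193 gaps lay within 500 bp below it and 217 within 500 bp above it. No gap was shorter than 2001 bp because the authors merged closer peaks, so a wide acetylated locus can count as 1 peak and fall outside the clusters.

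**Figure D1:**
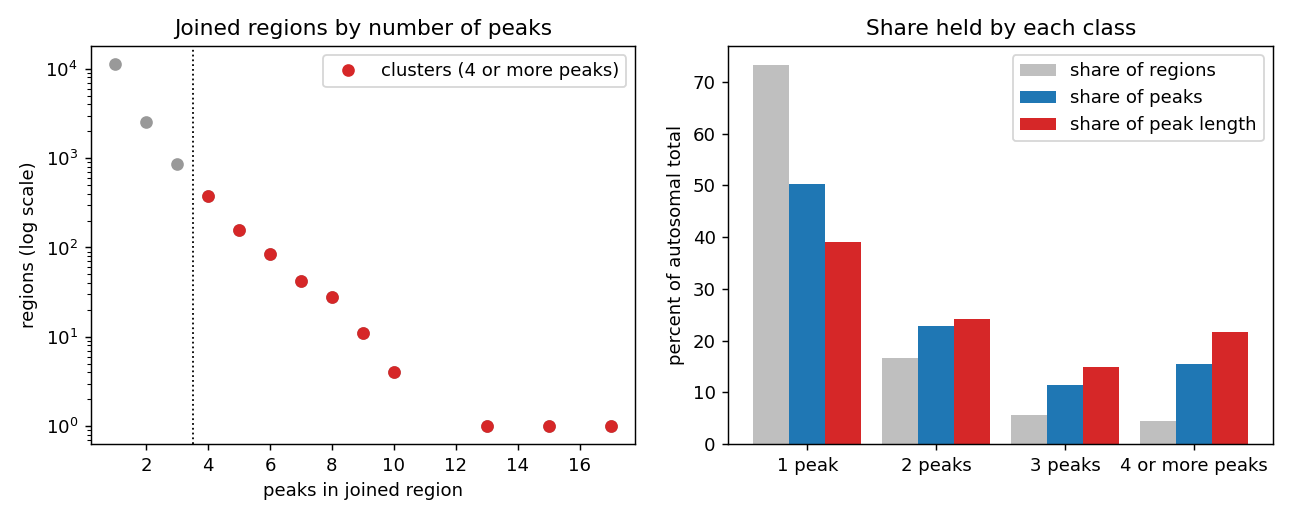
Number of joined regions by the peaks they hold (left, log scale, with clusters in red and the limit as a dotted line) and the share of autosomal regions, peaks and peak length in each class (right, percent). Clusters of 4 or more peaks made up 4.55% of the regions, 15.5% of the peaks and 21.7% of the peak length.

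Over all sizes, clusters and regions of 2 or 3 peaks had acetylated shares close to each other, but at like span the clusters were the less acetylated. The share of the span inside peaks, called the acetylated share below, had a median of 48.0% in clusters (46.5 to 49.4%; quartiles 36.2 and 61.1%), 47.0% in regions of 3 peaks (45.2 to 49.0%) and 49.96% in regions of 2 peaks (48.6 to 51.0%). Single peaks are 100% by construction. Over 50% of the span was acetylated in 315 clusters, and the range over all 702 ran from 8.15 to 91.7%. The intervals of the medians overlapped between clusters and regions of 3 peaks. Among regions spanning 30 to 60 kb, a range chosen after the data were seen, the median was 46.2% in 384 clusters, 65.0% in 208 regions of 3 peaks and 84.9% in 121 regions of 2 peaks. Among those spanning 60 to 200 kb it was 60.4% in 193 clusters, 83.1% in 28 regions of 3 peaks and 90.9% in 4 regions of 2 peaks. At a given span, more peaks leave more gaps, so this order is partly fixed by the rule.

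Clusters with a wide peak had a high acetylated share. Across the 702 clusters, Spearman's rho with the acetylated share was 0.84 for the width of the widest peak, 0.50 for span and 0.06 for the number of peaks. These are descriptions across regions of 1 list and do not rank the measures. The widest peak is itself part of both the span and the share, and the number of peaks is cut at 4, where 374 clusters are tied. By number of peaks, the median share was 46.9% at 4 peaks, 46.6% at 5, 49.2% at 6, 50.3% at 7, 47.8% at 8 and 47.4% at 9. Clusters of 8 or more had 51.4% together, and the 7 of 10 or more among them had 63.7%. The median widest peak measured 8682.5 bp, and its median part of the acetylated bases was 43.2%. A peak of at least 10 kb was present in 308 clusters (43.9%), against 243 of 866 regions of 3 peaks (28.1%), which have fewer peaks to count. Per peak, 13.6% of cluster peaks and 5.89% of other peaks were at least 10 kb wide. The other peaks pool single peaks, of which 3.53% were as wide, with those of regions of 2 or 3 peaks. In regions of 3 peaks, at least 243 of the 2598 peaks were as wide. Clusters held 475 of the 1596 autosomal peaks of at least 10 kb (29.8%), beside 15.5% of all peaks.

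**Figure D2:**
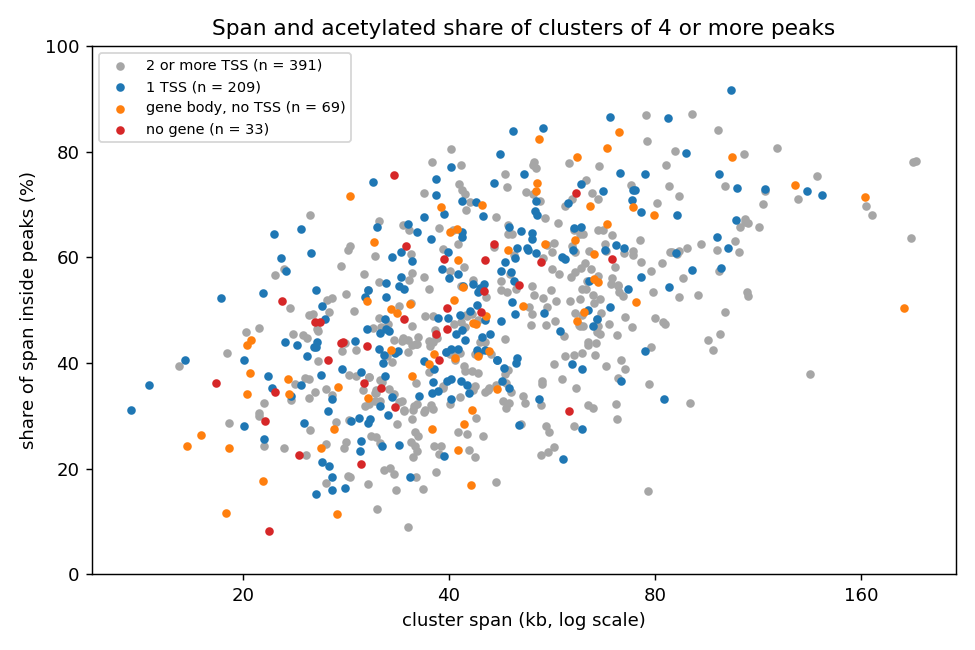
Span (kb, log scale) and acetylated share (percent) of the 702 clusters, 1 point each, coloured by the number of TSSs they hold. The share runs from 8.15 to 91.7%, and the longest cluster, at 192.7 kb, is 78.2% acetylated.

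The longest clusters held genes of unlike roles. The longest of all lay at chr12:86760425-86953092, spanned 192.7 kb with 10 peaks, and was 78.2% acetylated. It held the TSSs of Irf2bpl, of the IRF2-binding protein family, of Cipc, a repressor of the circadian CLOCK protein, and of the lincRNA Gm26698, and a single peak of 69.1 kb supplied 45.9% of its acetylated bases. The next, at chr4:132945225-133135553, spanned 190.3 kb with 10 peaks and was 78.0% acetylated, and held the TSSs of the Src-family kinase Fgr, the AT-hook protein Ahdc1, the actin regulator Wasf2 and the lincRNA Gm26615. Its widest peaks measured 33.7, 33.6 and 33.9 kb, and all 4 TSSs lay inside a peak. The cluster of Tgif1, a homeodomain repressor of TGF-β signalling, spanned 189.0 kb at chr17:70736972-70925952, with 15 peaks and an acetylated share of 63.7%. Its widest peak, of 34.1 kb, covered the Tgif1 TSS.

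The cluster with most peaks held no TSS. It lay inside the gene of the RNA-binding protein Msi2 at chr11:88512153-88696860, where 17 peaks spread over 184.7 kb. Their widths ran from 286 bp to 19.3 kb, every one was classed as gene body, and together they covered 50.4% of the span. The Hoxc cluster, at chr15:102910064-103045048, came after Msi2 and Tgif1 in number of peaks, with 13 in 135.0 kb. Hox genes encode homeodomain factors that set position along the body axis, and the 9 Hoxc genes and the lincRNA Hotair had their TSSs within it. Only 6 of these 10 TSSs lay inside a peak, and the acetylated share was 37.9%. A peak of 24.3 kb across the Hoxc13 and Hoxc12 starts held 47.5% of the acetylated bases. None of the other 30 Hox genes had its TSS in a cluster.

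**Figure D3:**
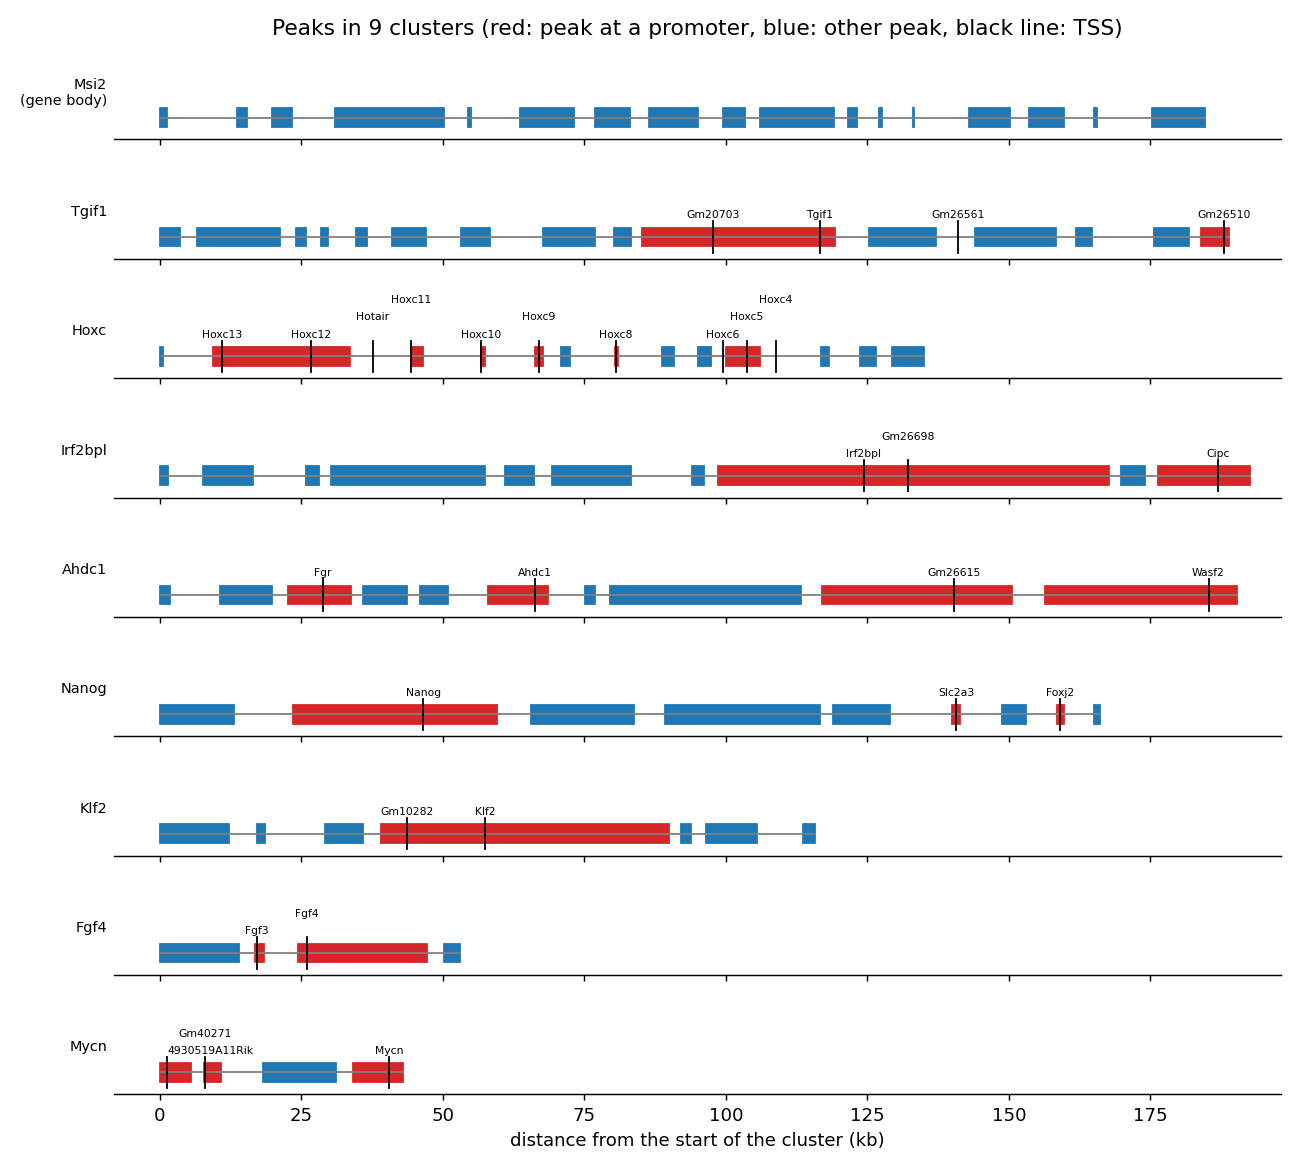
Peaks of 9 clusters drawn to scale from the start of each cluster (kb), in red where a peak overlaps a promoter within 1 kb of a TSS and in blue elsewhere, with black lines at TSSs of protein-coding and lincRNA genes. The 17 peaks in Msi2 meet no TSS, while a single peak of 69.1 kb holds the starts of Irf2bpl and Gm26698.

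The 5 clusters with the highest acetylated share each held 4 peaks. The cluster of Cd9, a tetraspanin of the cell surface, was 91.7% acetylated over 103.5 kb, with peaks of 12.1, 40.2, 38.0 and 4.60 kb. Those of the small heat shock gene Hspb1 with the 14-3-3 gene Ywhag, of Hspb8, of the DNA-binding protein gene Arid5b and of the glycosyltransferase gene B4galt6 ranged from 86.4 to 87.0%. The 5 lowest also held 4 peaks each, and none of their peaks reached 2 kb. A cluster without any gene at chr11:116880683-116902518 was 8.15% acetylated, with peaks of 159 to 767 bp. The others ranged from 8.999 to 12.4% and lay at D5Ertd605e and Pan3, a deadenylase subunit, at Unc119 and Foxn1, at the scavenger receptor gene Scarf2, and at a group of genes that includes the zinc finger genes Zfp747 and Zfp764.

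Gene content was not used to choose the clusters. The TSS of at least 1 protein-coding or lincRNA gene lay in 600 of 702 clusters, or 85.5% (82.7 to 87.9%), against 641 of 866 regions of 3 peaks (74.0%, 71.0 to 76.8%), 60.4% of regions of 2 peaks and 40.9% of single peaks. At least 2 TSSs lay in 391 clusters (55.7%), 209 held exactly 1, 69 overlapped a gene body but no TSS, and 33 met no gene. Longer stretches have more room for a TSS, and per 100 kb of span clusters held 4.63 TSSs and regions of 3 peaks 5.20. Among the regions of 30 to 60 kb, 85.9% of 384 clusters held a TSS, against 77.4% of 208 regions of 3 peaks and 76.0% of 121 regions of 2 peaks, and there the TSSs per 100 kb were 5.13, 3.88 and 3.48. In that range 88.0% of the 25 single peaks held a TSS, with 4.24 per 100 kb, so the share did not climb steadily with the number of peaks. Among those of 60 to 200 kb the order between clusters and regions of 3 peaks was the other way, with a TSS in 173 of 193 clusters (89.6%) and in 27 of 28 regions of 3 peaks (96.4%), while the TSSs per 100 kb were 3.74 and 3.18. Regions of 1 list are not replicates, and no test was made over them.

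The 4 kinds of cluster differed little in acetylated share. Its median was 46.5% in clusters without a gene, 49.6% in those in a gene body without a TSS, 49.96% in those with 1 TSS and 47.0% in those with 2 or more. The 21 clusters in which every peak overlapped a promoter had a median of 32.8%. They were rows of neighbouring genes, for example 6 peaks and 15 TSSs from Nelfb, a subunit of the pausing factor NELF, to Anapc2, a subunit of the anaphase-promoting complex, on chromosome 2. The cluster with most TSSs lay in the histone locus at chr13:23488509-23596497, where 16 TSSs, 14 of them of histone genes, all lay inside one of 7 peaks and 79.5% of 108.0 kb was acetylated. Wholly inside 1 gene lay 57 clusters, and 46 of them held no TSS. After Msi2, the longest of the 57 was in Rnf220, a ubiquitin ligase gene, with 6 peaks over 79.8 kb. The 57 and the 21 overlapped. The cluster with the TSSs of Jmjd8 and Stub1, for example, was in both sets, because a long annotated gene spans several others there. The 33 clusters without a gene lay a median of 36.7 kb from the nearest TSS, and 23 of them lay within 50 kb of one.

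Clusters held the TSSs of 1624 of 25930 autosomal genes, or 6.26%. The share was 7.06% for protein-coding genes (6.72 to 7.42%) and 3.07% for lincRNA genes (2.64 to 3.58%). Promoters of 1521 of the 1624 genes overlapped a peak, and these were 13.5% of the 11263 genes with a marked promoter. The median length of these marked genes was 10.8 kb, against 13.1 kb for marked genes in regions of 3 peaks, 19.1 kb in regions of 2 and 28.01 kb in single peaks. The 14564 unmarked genes elsewhere had a median of 10.9 kb and all autosomal genes 15.03 kb. Among marked protein-coding genes alone it was 11.5 kb in clusters, 14.1 kb in regions of 3 peaks and 29.6 kb in single peaks. Within clusters, 1275 peaks (36.6%) overlapped a promoter, 1297 lay in gene bodies and 910 were intergenic. Promoter peaks were 42.002% of all autosomal peaks, 46.3% of single peaks, 38.5% of peaks in regions of 2 and 37.6% in regions of 3. The widest peak was a promoter peak in 370 of 702 clusters.

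Of 23 autosomal pluripotency genes, 4 had their TSS in a cluster, or 17.4% (6.98 to 37.1%) beside the 6.26% of all genes. These were 4 of 18 with a marked promoter (22.2%, 9.001 to 45.2%), beside 13.5% of all genes with one. This list, like the other gene lists, was chosen with earlier results of these data known. Its intervals are therefore descriptions and no test. The Nanog cluster, at chr6:122660915-122827052, spanned 166.1 kb with 9 peaks and was 67.9% acetylated. Its 5 first peaks were 13.1, 36.0, 18.1, 27.4 and 10.1 kb wide, whereas the 4 others, at and around the TSSs of the glucose transporter gene Slc2a3 and the forkhead gene Foxj2, were at most 4.34 kb wide. The Klf2 cluster, at chr8:72261496-72377194, spanned 115.7 kb with 7 peaks, and a peak of 50.8 kb that covered the Klf2 TSS made up 60.6% of its acetylated bases. The Fgf4 cluster, at chr7:144821384-144874514, also held the TSS of its neighbour Fgf3 and was 77.5% acetylated over 53.1 kb, and that of Mycn, at chr12:12901405-12944301, was 70.4% acetylated over 42.9 kb. All 4 had an acetylated share above the upper quartile of clusters.

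Another 12 pluripotency genes had their TSS in a region with fewer peaks. There were 4 in single peaks (17.4%), 2 in regions of 2 peaks (8.70%) and 6 in regions of 3 peaks (26.1%). Of all autosomal TSSs, these classes held 21.1, 8.74 and 4.72%. All 12 genes had a marked promoter. Of the 18 pluripotency genes with one they were thus 4, 2 and 6, beside 48.7, 19.6 and 10.4% of all genes with one. The TSSs of Klf5, Prdm14, Zfp42, Tbx3, Tet1 and Gdf3 lay in regions of 3 peaks. The Klf5 region spanned 97.6 kb and was 85.0% acetylated, and that of Prdm14 spanned 91.0 kb and was 84.2% acetylated, both above the upper quartile of cluster spans. Sox2 and Tdgf1 lay in regions of 2 peaks, of 33.3 and 29.2 kb. A single peak of 34.0 kb covered the TSS of Pou5f1, the gene of OCT4, and single peaks of 71.8 and 50.3 kb covered those of Tfcp2l1 and Tet2. Tcl1 also lay in a single peak, of 7.54 kb. A count of peaks thus left out loci whose acetylated stretch was as long as that of a cluster.

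For the other 7 (30.4%, beside 59.1% of all autosomal genes), the TSS of the longest isoform lay in no joined region, and the distance to the nearest peak varied. Utf1 and Lin28a lay 0.041 and 0.086 kb from the nearest peak, Nr5a2 1.03 kb, Dppa3 6.55 kb, Sall4 9.12 kb and Klf4 14.7 kb. Esrrb, which encodes an orphan nuclear receptor of the naive state, was a case of isoform choice. A cluster of 4 peaks at chr12:86421614-86525297 lay on the gene, spanned 103.7 kb, was 79.0% acetylated and held the TSSs of 3 other isoforms, but it began 60.5 kb from the TSS of the longest. Its last peak measured 63.0 kb.

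Of 24 genes of signalling and feedback in mESCs, 7 had their TSS in a cluster, or 29.2% (14.9 to 49.2%) against the background of 6.26%, and these were 7 of 20 with a marked promoter, beside 13.5%. The list was chosen with earlier results of these data known, and the 7 were named after their values were seen. Smad7, an inhibitor of TGF-β signalling, had the longest of these clusters, with 7 peaks over 98.4 kb and 63.8% acetylated. Tcf7l1, the repressor at Wnt targets in mESCs, had 6 peaks over 90.5 kb (57.7%), and Socs3, the feedback inhibitor of LIF signalling, 8 peaks over 86.6 kb (52.5%). Id1, a BMP target, Fgfr1, the receptor for FGF4, Bmp4 and Tcf7l2 had clusters of 4 to 6 peaks and 32.2 to 57.1 kb. Of 13 lysine acetyltransferase genes, 1 had its TSS in a cluster, Hat1, a share of 7.69% (1.37 to 33.3%) near the background. All 13 had a marked promoter, and single peaks held 7 of them (53.8%, near the 48.7% of genes with a marked promoter), among them Ep300 and Crebbp, the genes of p300 and CBP.

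Genes that every cell uses were found in clusters at shares of 14.1 to 46.2%, beside 6.26% of all genes, but nearly all of them have a marked promoter, and of genes with one 13.5% lay in clusters. The mitochondrial ribosomal and proteasome shares were near the latter value. RNA polymerase II genes stood at 6 of 13 (46.2%, 23.2 to 70.9%), in 6 separate clusters of 4 to 7 peaks, among them Polr2a, which encodes the largest subunit. Seen after the count, the other 5 were Polr2e, Polr2g, Polr2h, Polr2i and Polr2l. Cytosolic ribosomal protein genes stood at 21 of 77 (27.3%, 18.6 to 38.1%) in 19 clusters, proteasome genes at 8 of 48 (16.7%, 8.70 to 29.6%) and mitochondrial ribosomal protein genes at 11 of 78 (14.1%, 8.06 to 23.5%). With marked promoters only, the shares were 46.2% for RNA polymerase II, 27.03% for cytosolic ribosomal, 18.6% for proteasome and 14.3% for mitochondrial ribosomal genes. Histone genes stood at 21 of 67 (31.3%), but these lay in only 2 clusters, and the 9 of 39 Hox genes lay in 1, so genes of such lists are not independent counts. The noncoding Platr transcripts, first listed in mESCs, stood at 3 of 22 (13.6%, 4.75 to 33.3%), which were Platr17, Platr19 and Platr26. With marked promoters only they stood at 3 of 16 (18.8%, 6.59 to 43.0%), an interval that holds the 13.5% of all genes with one.

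The lists of lineage regulators, receptors, keratins and defensins had no TSS in a cluster. The count was 0 of 21 lineage regulators, such as Sox17, Gata6 and Cdx2, which allows a share of up to 14.3%, and 0 of 1489 olfactory, vomeronasal and taste receptor genes, which allows 0.201%. It was also 0 of 113 genes of keratins and keratin-associated proteins, both called keratins here (up to 2.65%), and 0 of 64 defensin genes (up to 4.69%). The 14 genes of the stem cell microRNA clusters miR-290 and miR-302 had no start in a cluster either, which allows up to 21.4%, beside 4.33% of 2054 autosomal microRNA genes. For the lineage regulators and the microRNAs these limits lie above the background, so a lower share than that of all genes could not be told at this number of genes. Marked promoters were few in these lists, 4 among the lineage regulators, 2 among the receptors, 4 among the keratins and 3 among the defensins, too few to tell whether their share in clusters lay below the 13.5% of all genes with a marked promoter.

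**Figure D4:**
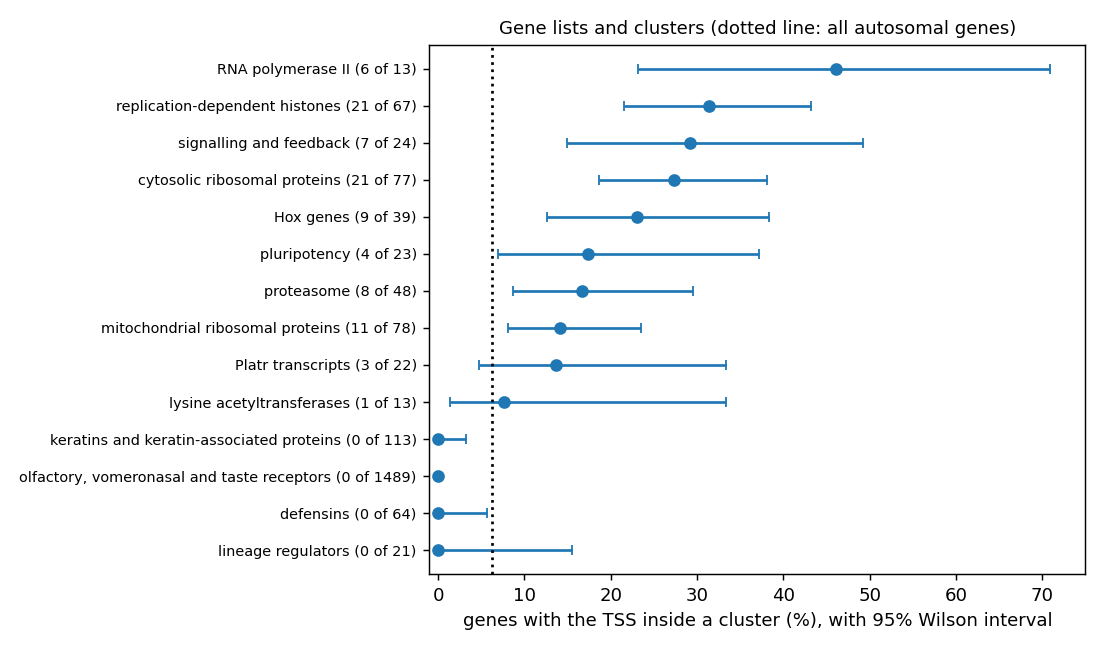
Share of the genes of 14 lists whose TSS lay inside a cluster (percent, with 95% Wilson intervals), and the 6.26% of all autosomal genes as a dotted line. RNA polymerase II genes stand highest at 46.2%, and 4 lists stand at 0.

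Clusters were unevenly spread over the autosomes. Chromosome 11 held 82 clusters, 67.2 per 100 Mb, with 24.2% of its peaks, and chromosome 14 held 10.4 per 100 Mb, with 7.29% of its peaks. Chromosomes 15, 17 and 7 followed chromosome 11 with 23.6, 22.0 and 21.7% of their peaks. Over the 19 autosomes, Spearman's rho of the share of peaks in clusters was 0.83 with peaks per Mb and 0.59 with genes per Mb. The first relation is partly fixed by the rule, since denser peaks are joined more often. Outside its ends, a cluster had its next peak at a median of 20932 bp, close to the 21655.5 bp of regions of 3 peaks, against 24271 bp for regions of 2 peaks and 32055 bp for single peaks.

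In GC and repeat content, the gaps within clusters were closer to the flanks than to the peaks. Pooled GC content was 49.0% in cluster peaks, 46.9% in the gaps between them, 46.6% in the 50 kb on either side and 41.9% in whole autosomes. Repeat-masked bases, written in lower case in the reference genome, made up 25.2% of cluster peaks, 31.2% of gaps and 29.9% of flanks. Classes of repeats were not told apart. The gaps were not poor in exons, with 9.05% exonic bases against 9.44% in cluster peaks, but they held 1.24 TSSs per 100 kb and the peaks 7.68.

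Cluster peaks differed from other peaks in opposite directions at and away from promoters. Promoter peaks in clusters had a median GC content of 52.3% and those elsewhere 53.5%, and the ratio of observed to expected CpG was 0.440 and 0.607. In gene bodies the medians were 49.6 and 47.7%, and between genes 48.1 and 46.7%. Over all classes together the medians were 49.9 and 49.5%. The other peaks pool single peaks with those of regions of 2 or 3 peaks, which were not separated here. Cluster promoter peaks were also wider, with a median of 3589 bp against 3005 bp in regions of 3 peaks, 2428 bp in regions of 2 and 1882 bp where they stood alone, and the part of width in the GC values was not tested.

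**Figure D5:**
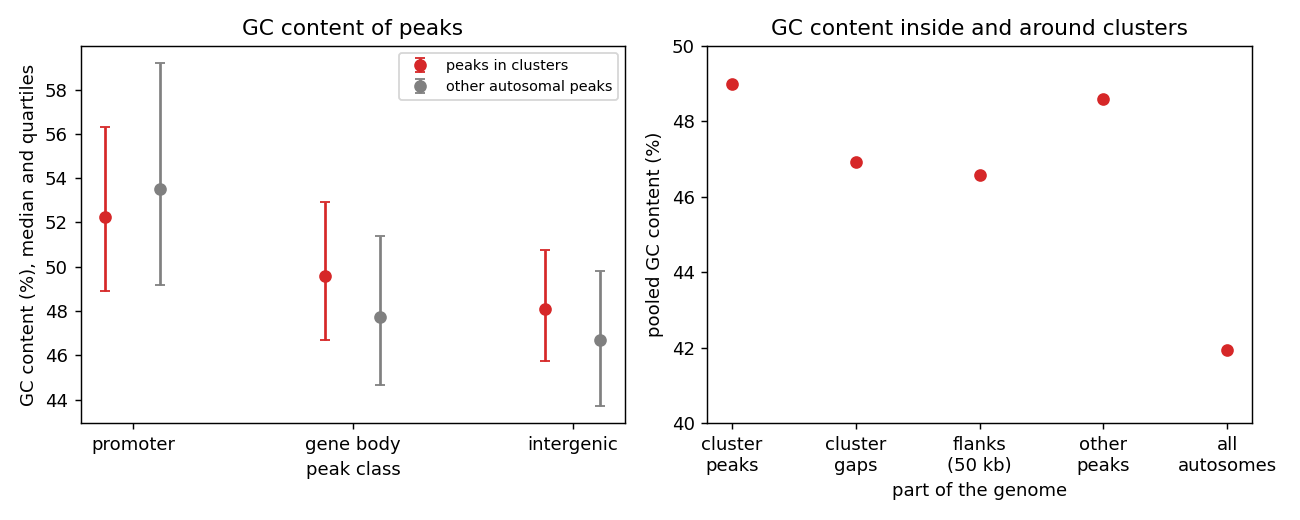
GC content of peaks in clusters (red) and elsewhere (grey) by class, as medians with quartiles (left), and pooled GC content inside and around clusters (right; the axis starts at 40%). Cluster peaks lie lower at promoters (52.3 against 53.5%) and higher in gene bodies (49.6 against 47.7%) and between genes (48.1 against 46.7%).

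Motif letters were counted per Mb, on both strands, in peaks and gaps of the clusters and in other peaks. The other peaks pool all peaks outside clusters, whether single or in smaller regions. TCAAGGTCA, the letters of the ESRRB motif, occurred at 50.5 per Mb in cluster peaks (931 matches), 33.3 in gaps, 43.8 in other peaks and 22.5 in whole autosomes. GGGCGTGG, of KLF factors, occurred at 86.3 in cluster peaks, 66.1 in gaps and 86.5 in other peaks. CCGGAAGT, of ETS factors, and the nearly palindromic GCGCATGCG, of NRF1, occurred at 28.5 and 10.6 in cluster peaks and at 30.8 and 16.0 in other peaks, with 9.92 and 4.03 in gaps. The OCT4-SOX2 core occurred at 24.0 in cluster peaks, 20.99 in gaps and 27.9 in other peaks, and the octamer at 50.6, 42.0 and 56.9. Both were denser in whole autosomes than in cluster peaks, with 27.6 and 89.7 per Mb, whereas the KLF, ETS and NRF1 letters were rarer there, with 24.4, 6.56 and 2.33. Whole autosomes also differ in base composition, with 41.9% GC and 8.51 CpG per kb, against 49.0% and 18.4 in cluster peaks. The part of base composition in these densities was not tested. The density in cluster peaks was 1.15 times that in other peaks for ESRRB and 0.666 to 0.997 times for the other 5. The 300-base windows at peak centres held it in 1.52% of cluster peaks (1.17 to 1.99%) and 1.44% of other peaks (1.28 to 1.62%), and these intervals overlapped. The windows held NRF1 letters in 0.345% of cluster peaks (0.197 to 0.601%) and 0.788% of other peaks (0.672 to 0.924%), intervals that did not overlap, and the OCT4-SOX2 core in 0.689% (0.464 to 1.02%) and 1.11% (0.969 to 1.27%), which overlapped. For the octamer the shares were 1.84 and 1.74%, for KLF 3.504 and 3.38% and for ETS 1.87 and 2.03%, with intervals that overlapped. Peaks of the same list are not replicates, so whether these intervals overlap is no test. Cluster peaks and other peaks also differed in promoter share, in the CpG ratio at promoters and in width. The part of these in the motif shares was not tested.

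The letters of these motifs were also counted in the peaks and gaps of the 4 pluripotency clusters. The Nanog cluster had 18 KLF matches in peaks and 1 in gaps, 6 ESRRB matches in peaks and 2 in gaps, and 4 OCT4-SOX2 matches, all in peaks. OCT4-SOX2 matches numbered 1 in peaks and 0 in gaps in the Fgf4 cluster, 0 and 1 in the Klf2 cluster, and none in the Mycn cluster. The Fgf4 cluster had 8 ESRRB matches, and Mycn 5, all in peaks, and the Klf2 cluster had 7 in peaks and 2 in gaps. KLF matches numbered 4 in peaks and 2 in gaps in both the Fgf4 and the Klf2 cluster, and 4 and 0 in the Mycn cluster. Peaks took up 67.9 to 77.5% of the length of these clusters. The octamer had fewer matches in peaks than in gaps in the Fgf4 cluster, with 0 and 2, and in the Mycn cluster, with 1 and 2, while the Nanog cluster had 5 and 2 and the Klf2 cluster 3 and 3.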

How the data were processed

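The measured quantity is the position of H3K27ac ChIP-seq peaks in control mESCs. The authors trimmed reads with cutadapt, aligned them with BWA to the mouse (mm10) and human genomes, marked duplicates for removal with Picard (2.9.1 in the submitters' processing notes) and filtered reads with SAMtools (1.4). They called peaks with LanceOtron, merged those within 2 kb and filtered them by height and by nearby ATAC-seq summits. The deposited list, pooled over both replicates, gives a chromosome, start and end per peak, that is, positions in base pairs with no score, and starts were read as counted from 0. Depth cannot be read from it.

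Autosomal peaks were joined at gaps of at most 12.5 kb, and regions of 4 or more peaks were kept. Genes were the 25930 autosomal protein-coding and lincRNA genes of GENCODE M21 (GRCm38), each with the TSS of its longest isoform. A peak was promoter where it overlapped a window of 1 kb around a TSS by at least 1 bp, otherwise gene body or intergenic. Sequence came from RefSeq GRCm38.p6. Shares have 95% Wilson intervals, medians binomial order-statistic intervals, and a count of 0 allows 3 counts.

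The members and lists were chosen with earlier results of these data known. The text names the 5 clusters with most peaks (the 2 longest of 4 tied at 10 peaks were taken), the longest span, and the highest and lowest acetylated share, clusters and genes of the pluripotency list, and list members where 5 or fewer lay inside or outside clusters. The signalling and RNA polymerase II genes, and the clusters named for most TSSs, for promoter peaks only or for lying inside a gene, were named after their values were seen. On simulated data, 2000 of 2000 regions were recovered. Alternatives were the joining distance, the number of peaks, peaks of at least 1 kb, peaks away from promoters, protein-coding genes only and any isoform. No test was run and no treated sample was compared. The software was matplotlib 3.10.9, scipy 1.17.1, pandas 2.3.3 and numpy 2.4.6 under Python 3.11.15.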

Additional observations from a re-analysis of the deposited data

How the results depend on the processing

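Of 38 values recomputed, 8 moved by less than their interval, or for the number of clusters by less than 1.5 times, 29 moved further and 1 changed sign. With a joining distance of 5 kb there were 118 clusters with 2.32% of the peaks, a median span of 33669.5 bp, a median acetylated share of 66.1% and a TSS in 82.2%, and the difference in median GC content between cluster peaks and other peaks went from 0.342 to -0.261 percentage points. With 20 kb these were 1199, 29.4%, 55639 bp, 37.8% and 88.7%. A longer distance adds longer gaps by construction, which lowers the acetylated share. With 3 or more peaks there were 1568 clusters with 27.001% of the peaks, 30677 bp, a TSS in 79.1% and a GC difference of 0.0515. With 5 or more peaks there were 328 with 8.82%, 58622 bp and 89.9%. Peaks of at least 1 kb gave 12.8% of the peaks, 47046 bp and an acetylated share of 53.5%. Peaks that overlap no promoter gave 192 clusters with 6.88% of these peaks, 40119 bp, a TSS in 16.1%, which follows from leaving out promoter peaks, and a GC difference of 1.06. A TSS lay in 81.6% of clusters with protein-coding genes only and in 89.6% with any isoform. No paired analysis was possible because the control peaks come as 1 list pooled over both replicates and no test was run. No replicate could be left out for the same reason. A stricter score was not run, since the list has none, and peaks missed for lack of depth cannot be told from unacetylated sequence.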

Other observations

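The X chromosome, which the rule leaves out, held 454 peaks, and joining them in the same way gave 2 clusters of 4 or more peaks with 8 peaks, or 1.76% of its peaks. Their median span was 69212.5 bp and their acetylated shares were 75.9 and 80.6%. The Y chromosome held 1 peak.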
